A study of Sus scrofa with 16 samples.

Results

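Expression of 10 genes of gut hormone and neuropeptide signalling was described in the colonic mucosa and liver of pigs fed corn starch or raw potato starch. The genes were GAL, NPY2R, ADCYAP1, PYY, GCG, CCK, SST, VIP, CHGA and SCG3. They were selected on their role in peptide signalling and with earlier diet results of these same arrays known, so the diet differences below describe chosen genes and do not test them. A probe was assigned to a gene when the array annotation gave the symbol as its gene name or in brackets in its description. By this rule 9 of the 10 genes had probes, 14 of the 43603 probes measured, each with 1 spot, whereas the gene name column held 35458 distinct entries in all. VIP, the vasoactive intestinal peptide of enteric neurons, had 0 probes and was not measured here.

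All animals were Duroc × Landrace × Large White barrows, 170 days old at sampling. The control (CS) diet contained purified corn starch at 230 g/kg in the growing phase and 280 g/kg in the finishing phase, and the RPS diet contained raw potato starch, a resistant starch, in its place. Both were fed for 100 days. In each tissue, 4 pigs per diet were measured, each on its own 1-colour Agilent array, giving 16 arrays. Colonic mucosa was scraped from the proximal colon with a glass slide, so that a sample holds epithelium together with underlying cells, and feed was withheld before slaughter. In bulk tissue, fewer cells of a type and less RNA per cell cannot be told apart.

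Gut hormones are made by enteroendocrine cells, scattered secretory cells of the gut epithelium that sense nutrients and microbial products and release peptides from dense granules. In the distal gut, L cells produce peptide YY from PYY and glucagon-like peptides from GCG, and D cells produce somatostatin from SST, whereas CCK, the cholecystokinin gene, is best known from I cells of the proximal small intestine. CHGA and SCG3 encode granins, structural proteins of the granules. GAL (galanin) and ADCYAP1 (PACAP) are neuropeptides of enteric and other autonomic neurons, and NPY2R encodes the Y2 receptor, through which peptide YY acts on nerve endings.

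The probes on which the results turned are shown first, because each reads a single stretch of 60 bases of its transcript. The GAL and NPY2R probes carried the lower colonic signal with the RPS diet, the ADCYAP1 probe the lower liver signal, and the CHGA pair gave contrary readings of the same gene.
GAL, A_72_P441424: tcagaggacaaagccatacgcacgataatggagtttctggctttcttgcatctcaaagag
NPY2R, A_72_P223857: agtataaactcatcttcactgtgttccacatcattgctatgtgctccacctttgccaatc
ADCYAP1, A_72_P302719: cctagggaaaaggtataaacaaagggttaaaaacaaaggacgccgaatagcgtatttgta
CHGA, A_72_P048586: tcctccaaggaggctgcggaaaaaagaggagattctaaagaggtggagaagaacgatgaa
CHGA, A_72_P479234: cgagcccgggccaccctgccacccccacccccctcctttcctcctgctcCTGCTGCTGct
They are printed 5′ to 3′ as the array design gives them, with starts at bases 470, 907, 470, 580 and 1649 of their target transcripts, and the capitals in the last mark a run of 3 CTG triplets, which 0.103% of all probes also contained. Its GC content was 73.3%, reached by 0.142% of all probes, against 46.7% for A_72_P048586. The GAL, NPY2R and ADCYAP1 probes had a GC content of 45%, 41.7% and 38.3%. The CCK probes A_72_P232347 and A_72_P496361 shared 41 bases and therefore read nearly the same site, whereas the longest stretch shared within the CHGA or the SCG3 probes was 6 bases.

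Signals are given as log2 values after quantile normalization over the 8 arrays of a tissue. The scanner software marks each spot as well above background or not, and a signal without that mark is an upper limit rather than a level. The share of probes with that mark ranged from 64.9% to 72.2% over the colonic arrays and from 61.1% to 65.9% over those of the liver. Before normalization, the median signal of a colonic array was 56.3 to 70.8 with CS and 34.2 to 42.5 with RPS. The 4 arrays of each group shared 1 slide, so slide and group cannot be told apart.

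Among the colonic arrays, CS replicate 3 and RPS replicate 2 stood apart. Their mean signal over 7 epithelial marker genes was 12.01 and 12.56, and that of the other 6 arrays was 13.56 to 14.01. On the same arrays MS4A1, a B cell surface gene picked out after its values were seen, was at 12.72 and 12.57, against 6.50 to 10.37 elsewhere. The colonic diet differences of the members are therefore also given without these arrays, a comparison added after the data were seen.

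In the colon, the neuropeptide gene GAL and the receptor gene NPY2R were lower with the RPS diet, both near the detection limit, while ADCYAP1 was at background on all 8 arrays. GAL read 3.96, 3.62, 3.76 and 3.74 on the CS arrays, each well above background. On the RPS arrays it read 3.22, 2.39, 0.87 and 0.93, and was well above background on 0 of 4. The groups did not overlap, and the difference, RPS minus CS, was -1.91 ± 0.53 on the log2 scale (SE, limma, n = 4 per group). Because no RPS array had a measured level, GAL was set against the dimmest probe well above background on each RPS array. By this bound it was 1.46-fold lower. Probes without the mark could read above that dimmest signal, so the bound is not a strict minimum. On RPS replicate 1 the dimmest marked signal was 3.23, and SCG3 A_72_P589524 read 3.35 without the mark.

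NPY2R read 5.10, 2.86, 4.50 and 4.66 with CS, of which replicate 2 was not well above background. With RPS it read 2.72, 1.59, 1.86 and 2.81, all of them at background. Every RPS array read below every CS array, with a difference of -2.04 ± 0.53. The closest readings, 2.86 with CS and 2.81 with RPS, were both upper limits. The fold bounded as for GAL was 2.09, but it took CS replicate 2 at its reading, so it is not a strict minimum. GAL and NPY2R had the only probes among the 14 past both thresholds of the study, namely a fold change over 1.5 at an unadjusted p under 0.05. The same thresholds were passed by 2.94% of all 43603 probes in the colon, 1.62% higher and 1.32% lower with RPS, and the members' count was fixed in part by their choice. Across the 14 probes, which include repeated probes of CCK, CHGA and SCG3, the median difference was -0.45, with 11 below 0. Over all 43603 probes the median was 0.01, with 20818 below 0.

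Both differences depended on the treatment of background. After normexp correction of the unsubtracted signals, GAL differed by -0.17 and NPY2R by -0.29, and neither reached 1.5-fold. That correction adds an offset of 50 to every signal before the log2 scale, which by itself shrinks the differences of dim probes. The lowest normalized signal of a probe well above background was 2.44 to 2.93 on the CS arrays and 3.15 to 3.32 on the RPS arrays, so that the detection limit was higher with RPS. Without CS replicate 3 and RPS replicate 2 the differences were -2.07 ± 0.66 for GAL and -1.74 ± 0.65 for NPY2R.

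Markers of smooth muscle, enteric neurons and enteric glia were read beside GAL and NPY2R. Over 6 smooth muscle genes, all well above background on the 8 arrays, the mean signal was 11.76 to 12.12 with CS and 11.36 to 11.75 with RPS, with 11 of 35 probes lower past both thresholds and a difference of -0.41 (exact two-sided permutation test, p = 0.0286, the smallest that 4 arrays against 4 allow, and 0.172 after Benjamini-Hochberg adjustment over 6 marker lists). Over 9 genes of enteric neurons the mean was 4.87 to 5.44 with CS and 4.57 to 5.50 with RPS, with CHRNA3 at background throughout (difference -0.19, exact permutation p = 0.457). Over 4 glial genes it was 2.97 to 3.97 and 2.40 to 3.49, with GFAP at background (difference -0.51, exact permutation p = 0.171). The part of muscle or neural content in the GAL and NPY2R differences was not tested.

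**Figure D1:**
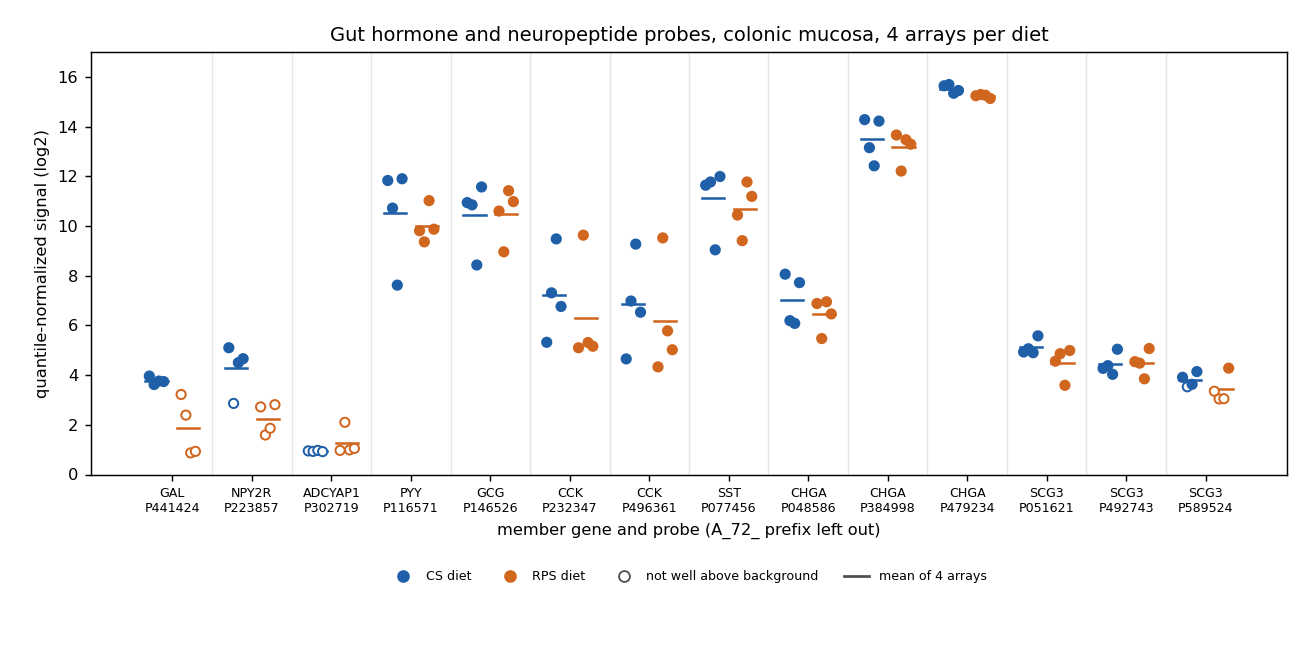
Quantile-normalized log2 signals of the 14 probes on the colonic arrays, with CS on the left and RPS on the right of each column, replicates 1 to 4 from left to right and a bar at the mean of 4 arrays. Open circles are spots not well above background; GAL and NPY2R are open on all 4 RPS arrays, and ADCYAP1 on all 8.

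The hormone genes of the enteroendocrine cells had measured levels on each of the 8 colonic arrays, and their diet groups overlapped. Over 7 epithelial marker genes the mean signal was 13.36 with CS and 13.57 with RPS (difference 0.21, exact permutation p = 0.6). Of their 27 probes 26 were above 0, as were 22785 of all 43603. Goblet cell markers differed by 0.06 (exact permutation p = 0.743). PYY read 11.83, 10.72, 7.62 and 11.90 with CS and 9.81, 9.36, 11.02 and 9.87 with RPS, a difference of -0.50 ± 0.97. CS replicate 3 was 3.10 below the next lowest CS array, and the size of the difference depended on single arrays. Without CS replicate 3 PYY differed by -1.48 and passed both thresholds, and without CS replicate 4 by -0.04. Of 18 alternative settings, 1 took PYY past both thresholds. Without both arrays that stood apart, the comparison added after the data were seen, PYY differed by -1.26 ± 0.48, again past both.

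GCG, the proglucagon gene, read 10.94, 10.85, 8.43 and 11.57 with CS and 10.60, 8.96, 11.42 and 10.98 with RPS. The difference was 0.04 ± 0.80, and -0.13 ± 0.30 without the arrays that stood apart. SST read 11.64, 11.77, 9.04 and 11.99 with CS and 10.44, 9.41, 11.77 and 11.19 with RPS, which gave -0.41 ± 0.78, or -0.67 ± 0.36 without those arrays. For both genes the lowest array of each diet was 1 of the 2 with the low epithelial mean.

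CCK showed the opposite order of arrays. Its probe A_72_P232347 read 5.32, 7.31, 9.48 and 6.76 with CS and 5.10, 9.63, 5.31 and 5.16 with RPS, and the overlapping probe A_72_P496361 read 4.65, 6.98, 9.27 and 6.53 with CS and 4.33, 9.52, 5.78 and 5.02 with RPS. The highest array of each diet was again CS replicate 3 or RPS replicate 2, where PYY, GCG and SST were lowest. The diet differences were -0.92 ± 1.28 and -0.69 ± 1.36, within the spread of the arrays, and -1.27 ± 0.52 and -1.01 ± 0.72 without those arrays.

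The B cell gene MS4A1 was read beside CCK. It read 7.68, 10.37, 12.72 and 10.33 on the CS arrays and 6.50, 12.57, 8.26 and 7.37 on the RPS arrays. Within each diet, the 4 arrays had the same order for MS4A1 and both CCK probes. MS4A1 was chosen after its values were seen, and the part of lymphoid or epithelial content in the hormone signals was not tested.

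**Figure D2:**
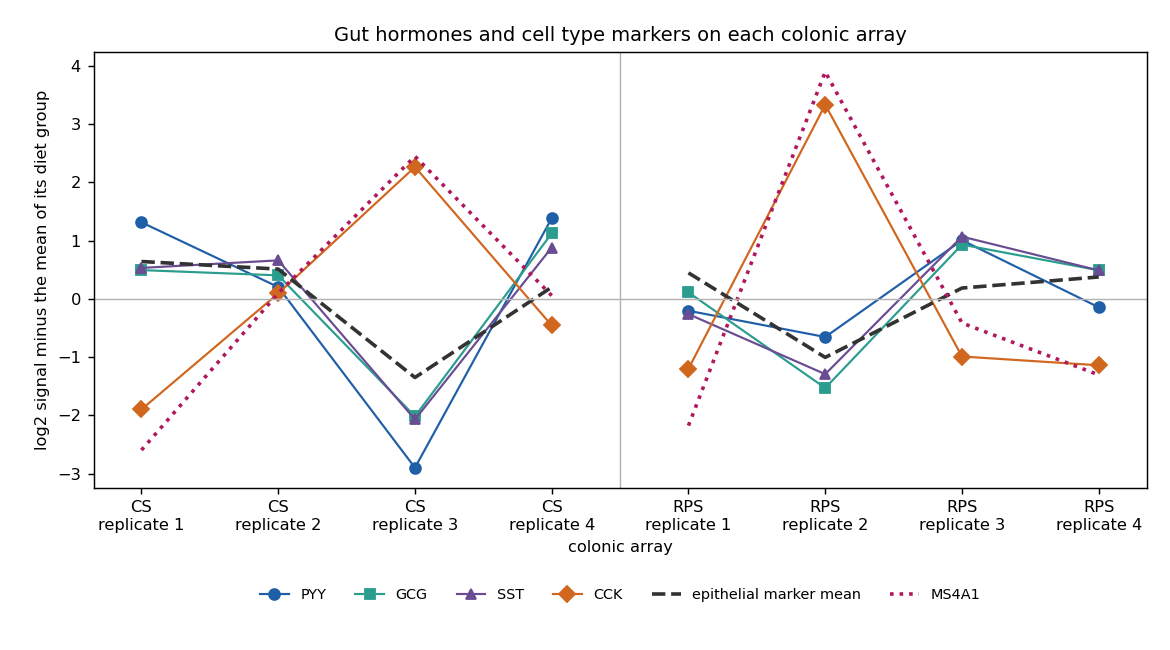
Log2 signal of PYY, GCG, SST, CCK and MS4A1 and the mean over 7 epithelial marker genes on each colonic array, each minus the mean of its diet group, with lines drawn only to guide the eye. On CS replicate 3 and RPS replicate 2, PYY, GCG, SST and the epithelial mean lie below 0 and CCK and MS4A1 above 0.

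Among the granule proteins, the probes of CHGA did not read alike. A_72_P384998 read 14.28, 13.15, 12.42 and 14.22 with CS and 13.66, 12.21, 13.47 and 13.29 with RPS, a difference of -0.36 ± 0.51. A_72_P048586 differed by -0.57 ± 0.56, and both were lowest on CS replicate 3 and RPS replicate 2 within their diets. The GC-rich A_72_P479234 instead stayed within 15.34 and 15.69 with CS and within 15.13 and 15.29 with RPS, groups that did not overlap but differed by -0.30 ± 0.11, a 1.23-fold difference below the fold threshold. SCG3 differed by -0.62 ± 0.33, 0.05 ± 0.31 and -0.37 ± 0.30 at its probes A_72_P051621, A_72_P492743 and A_72_P589524, with overlapping groups at each. Without CS replicate 3 and RPS replicate 2, the CHGA differences were -0.41 ± 0.34, -0.56 ± 0.52 and -0.37 ± 0.11 in the order given, those of SCG3 were -0.81 ± 0.40, -0.08 ± 0.38 and -0.30 ± 0.36, and none passed both thresholds.

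The covariation of these genes across the colonic arrays was examined after the diet means were subtracted. Of 12 pairs listed, 5 had both genes measured on all 8 arrays. PYY and GCG correlated with Pearson r = 0.89 and Spearman rho = 0.95 (n = 8, exact permutation within diet, p = 0.00174 for each, the smallest that 576 permutations allow, Benjamini-Hochberg p = 0.0087 over 5 pairs). Within the diets r was 0.98 for CS and 0.81 for RPS, 4 arrays each. Without the 2 arrays farthest from the PYY median r was 0.70 (n = 6, exact permutation p = 0.229), and without CS replicate 3 and RPS replicate 2 it was 0.78 (n = 6, exact permutation p = 0.139), so the relation rests in part on those arrays.

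CHGA was read at its brightest probe, A_72_P479234, and there no pair with CHGA passed. That probe read 15.20 to 15.75 in colonic mucosa and 15.38 to 15.62 in liver, where A_72_P048586 was at background throughout. Its pairs therefore cannot decide whether CHGA itself varied with these genes. PYY and CHGA had r = 0.55 and rho = 0.33 (exact permutation p = 0.382 and 0.589, adjusted p = 0.618 for r). GCG and CHGA had r = 0.32 and rho = 0.14 (exact permutation p = 0.618 and 0.795), SST and CHGA r = 0.43 and rho = 0.36 (0.472 and 0.465), and SCG3 and CHGA r = -0.21 and rho = -0.21 (0.526 and 0.599). Without the 2 arrays farthest from the median of the first gene these values of r were -0.13, -0.54, -0.15 and 0.07. At A_72_P384998, chosen after the data were seen, r was 0.83 with PYY, 0.88 with GCG and 0.79 with SST, with exact permutation p of 0.0139, 0.026 and 0.0486, and 0.052, 0.052 and 0.0648 after adjustment, all short of the threshold. With SCG3 it was -0.04 at this probe (exact permutation p = 0.901).

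In the liver, ADCYAP1 and SCG3 were lower with the RPS diet. ADCYAP1 read 6.84, 6.82, 6.98 and 5.95 with CS and 4.47, 3.54, 4.06 and 5.34 with RPS. All CS arrays and 3 of the 4 RPS arrays were well above background, and the groups did not overlap. The difference was -2.29 ± 0.41, a 4.90-fold lower signal (limma adjusted p = 0.311 over all probes). It passed both thresholds under each of the 18 alternative settings, between -2.62 and -0.84, the smallest being after normexp correction.

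SCG3, which helps to sort hormones into granules, was lower at all 3 probes. A_72_P051621 read 5.85, 4.56, 5.06 and 4.80 with CS and 2.44, 2.96, 3.55 and 3.05 with RPS, and differed by -2.06 ± 0.33 (limma adjusted p = 0.293), with 3 of the 4 RPS values at background and therefore upper limits. A_72_P492743 read 5.07, 4.06, 4.24 and 3.96 with CS and 0.89, 2.29, 2.81 and 2.54 with RPS, where 0 of 4 arrays was well above background (limma adjusted p = 0.342). Its bounded fold was 2.26, lower with RPS and, as for GAL in the colon, not a strict minimum. For these probes every RPS array lay below every CS array. A_72_P589524 read 4.69, 2.34, 3.74 and 3.53 with CS and 1.5, 1.61, 1.66 and 2.77 with RPS, and overlapped by 1 array (limma adjusted p = 0.512). Its bounded fold was 1.34, but it took CS replicate 2, itself at background, at its reading, so it is not a strict minimum.

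Thus 4 of the 14 probes passed both thresholds in the liver, all lower with RPS, while 3.56% of all probes did, 1.8% higher and 1.76% lower. These 4 probes represent 2 genes, and 0 of the 14 had an adjusted p under 0.05. The members were chosen with earlier diet results of these arrays known, so this count is no test of them. The median over the 14 was -0.01, against 0 over all probes. With normexp correction the SCG3 differences shrank to -0.41, -0.25 and -0.22 and no longer reached 1.5-fold. Neural markers in the liver averaged 3.96 to 4.44 with CS and 3.98 to 4.65 with RPS over 9 genes, with CHAT, GAP43 and NEFL at background (difference 0.18, exact permutation p = 0.314). Epithelial markers in the liver were also lower in value with RPS, at 7.94 to 8.52 with CS and 7.88 to 8.07 with RPS over 7 genes, with CDX2 and KRT20 at background (difference -0.27, exact permutation p = 0.0857), and 23 of their 27 probes were below 0, 2 of them past both thresholds. Of all 43603 probes, 22259 were below 0 in the liver. The part of nerve or epithelial content in the ADCYAP1 and SCG3 differences was not tested.

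**Figure D3:**
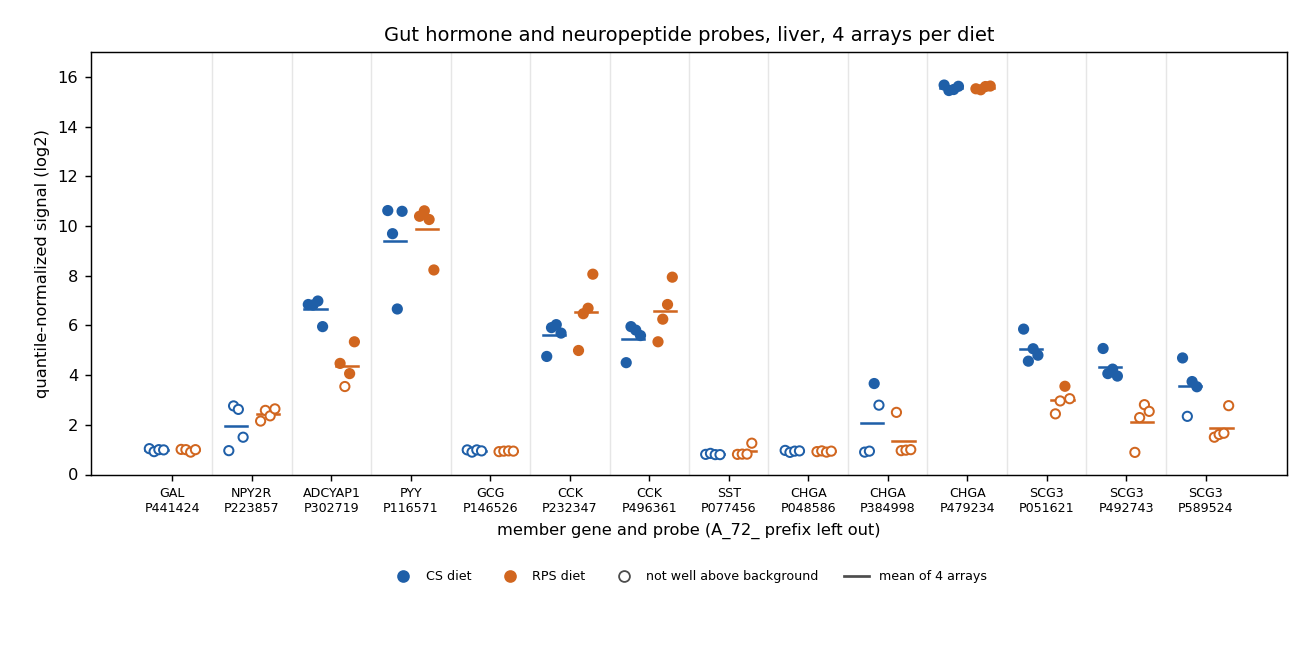
Quantile-normalized log2 signals of the 14 probes on the liver arrays, drawn as for the colon. ADCYAP1 and the SCG3 probes A_72_P051621 and A_72_P492743 separate the diets, GAL, NPY2R, GCG, SST and CHGA A_72_P048586 are open on all 8 arrays, and CHGA A_72_P479234 lies at 15.45 to 15.67 on all of them.

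GAL, NPY2R, GCG, SST and CHGA A_72_P048586 were at background on all 8 liver arrays, and CHGA A_72_P384998 was well above background on 1. PYY, in contrast, was well above background on all 8 at its only probe, and whether that probe reads PYY alone was not tested. PYY read 10.62, 9.69, 6.66 and 10.59 with CS and 10.39, 10.61, 10.26 and 8.23 with RPS, a difference of 0.48 ± 0.98 (limma adjusted p = 0.95). The order of the CS arrays was nearly that of the colonic arrays of the same numbers, with replicate 3 lowest and replicate 2 next in both tissues, whereas the order of the RPS arrays differed between the tissues. For CS, arrays of the same number deviated together between the tissues over 23415 probes (r = 0.16 to 0.33), and for RPS they did not (r = -0.08 to 0.07).

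CCK was also well above background on all liver arrays, at 4.75, 5.91, 6.03 and 5.69 with CS and 4.99, 6.47, 6.69 and 8.06 with RPS for A_72_P232347. The groups overlapped, and the differences of the 2 probes were 0.95 ± 0.63 and 1.13 ± 0.58 (limma adjusted p = 0.791 and 0.721). RPS replicate 4 was the highest for CCK and the lowest of its diet for PYY. Without RPS replicate 1 the CCK differences were 1.48 and 1.55, past both thresholds, and without RPS replicate 4 they were 0.45 and 0.68. Of 18 alternative settings, 1 and 2 took these probes past both thresholds. CHGA A_72_P479234 differed by 0.00 ± 0.08 between the diets (limma adjusted p = 1).

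**Figure D4:**
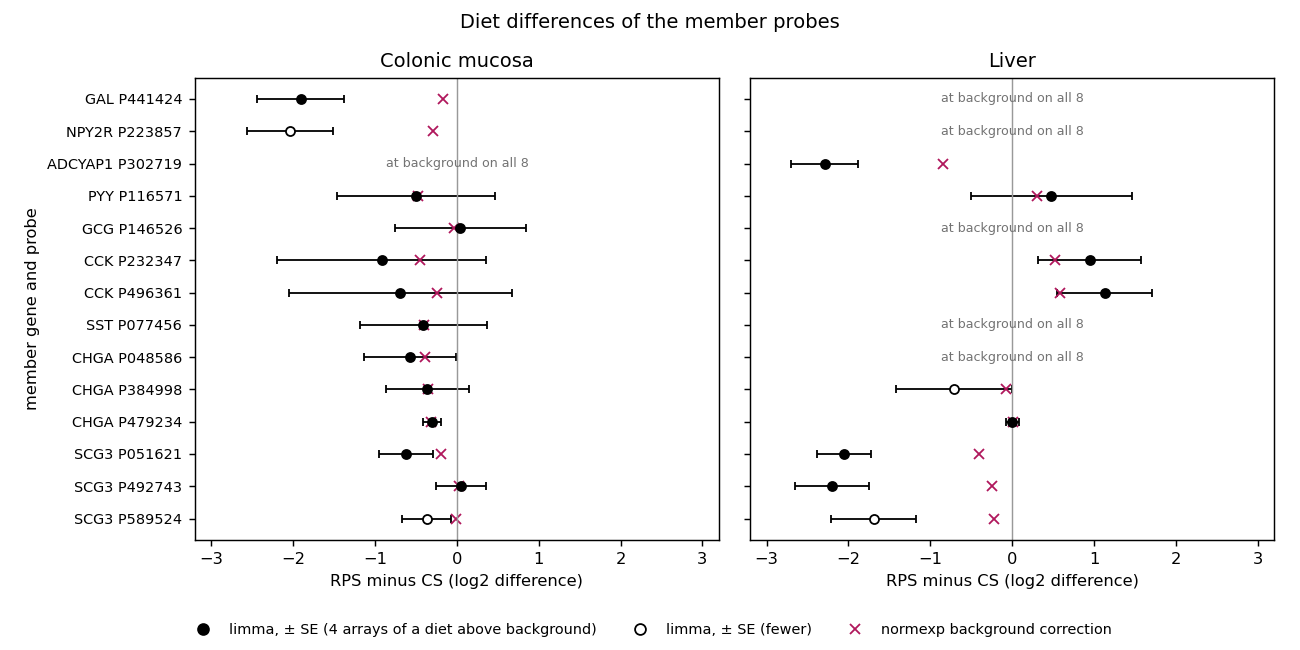
RPS minus CS differences on the log2 scale with their standard errors from limma for the 14 probes in colonic mucosa and liver, with crosses for the same difference after normexp background correction. The differences of GAL and NPY2R in the colon and of ADCYAP1 and SCG3 in the liver lie at or beyond -1.69, and their crosses lie between -0.84 and -0.17.

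The tissues were compared after all 16 arrays were normalized together, a contrast that does not use the diet difference. Of the 14 probes, 6 had an adjusted p under 0.05, 5 higher and 1 lower in the colon, while 52.9% of all probes did, 28.9% higher and 24% lower, so that the members were not called more often than other probes. SST was the clearest, at 8.85 to 11.89 in colonic mucosa (median 11.28) and 0.78 to 1.39 in the liver (median 0.79), with a bounded fold of 166 (limma adjusted p = 1.05e-10). GCG was at 8.23 to 11.45 against 0.88 to 0.97, with a bounded fold of 121 (limma adjusted p = 1.83e-10). Neither gene had a liver array above background, so these folds were set against the dimmest marked signals and are not strict minima. After normexp correction the differences were 4.70 for SST and 4.22 for GCG on the log2 scale.

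CHGA was higher in the colon by 11.52 ± 0.51 at A_72_P384998 and by a bounded fold of 8.53 at A_72_P048586, with limma adjusted p of 1.37e-10 and 1.2e-09. A_72_P384998 was well above background on 1 of 8 liver arrays, so its difference is largely set against background values, and after normexp correction it was 6.98. At A_72_P479234 it lay between 15.20 and 15.75 in colonic mucosa and between 15.38 and 15.62 in liver, a difference of -0.06 ± 0.07 (limma adjusted p = 0.533). The probes of this gene thus differed in tissue pattern, and only A_72_P479234 read alike in both. GAL was 1.63 ± 0.24 higher in the colon (limma adjusted p = 4.2e-05), which came from the CS arrays, where the difference was 2.64, against 0.69 within RPS, where both tissues were at background. GAL was well above background on 4 of 8 colonic and 0 of 8 liver arrays, and after normexp correction the difference was 0.15.

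ADCYAP1 ran the other way, at 0.94 to 1.82 on colonic arrays and 3.83 to 7.21 on liver arrays (limma adjusted p = 5.18e-10). Its bounded fold was 8.24, lower in the colon, and its difference was -0.88 on the log2 scale after normexp correction. The bound took the liver array that was not well above background at its reading, so it is not a strict minimum. PYY ranged from 7.40 to 11.80 in colonic mucosa and from 6.90 to 10.77 in liver and differed by 0.31 ± 0.71 (limma adjusted p = 0.744), and CCK by 0.20 ± 0.74 and -0.01 ± 0.77. NPY2R differed by 0.55 ± 0.36 and SCG3 by 0.23 ± 0.24, 0.70 ± 0.31 and 0.31 ± 0.31, and none of these passed. Among hepatocyte marker genes, all 9 with probes were well above background on the 8 liver arrays, and all 7 epithelial marker genes were on the 8 colonic arrays. Of the same lists, 5 of 9 hepatocyte genes were also well above background on all colonic arrays and 5 of 7 epithelial genes on all liver arrays.

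Other genes of gut peptide signalling were read from a list of 88, of which 44 had probes, 90 in all. In the colon, 2 of the 90 probes were higher and 2 lower with RPS past both thresholds, in the liver 3 and 2, to be read against the background shares given above. After adjustment 0 probes passed in limma in either tissue, and 14 and 7 had an unadjusted p under 0.05, as did 2362 and 3309 of all 43603 probes. The colonic probe that was past both thresholds and measured on all arrays of a diet was CALCRL A_72_P178101, the receptor of calcitonin gene-related peptide and adrenomedullin, at 5.45, 5.01, 4.81 and 5.46 with CS and 6.08, 5.53, 5.42 and 6.16 with RPS (difference 0.62 ± 0.24). Without CS replicate 3 and RPS replicate 2 it differed by 0.58 ± 0.25 and no longer passed both. In the liver these were GAST A_72_P165246, the gastrin gene (0.70 ± 0.25), GUCA2B A_72_P441609, which encodes uroguanylin (0.65 ± 0.28), CHGB A_72_P649087, a further granin (1.09 ± 0.27), and GLP2R A_72_P024256, the receptor of glucagon-like peptide 2 (-0.66 ± 0.19). GAST and CHGB were well above background on all 4 RPS arrays but on 1 of 4 CS arrays, so they met the rule only through the diet in which they were higher, and their differences are set against background values. The other GAST probe, A_72_P444674, was well above background on 4 CS and 2 RPS arrays and differed by -0.19 ± 0.31. GUCA2B A_72_P441609 passed both thresholds in 4 of 18 alternative settings. The other GUCA2B probe, A_72_P176351, differed by 0.48 ± 0.12, a 1.39-fold difference below the fold threshold. For CHGB, 9 of its 15 probes were at background on all liver arrays, and 10 of the 15 differences were below 0.

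The list of granins, convertases and peptidases had a median colonic difference of -0.56 over 36 probes, 29 of them below 0 and 7 above. Among all 43603 probes, 20818 were below 0. Of the 36 probes, 15 belonged to CHGB, with differences of -0.90 to -0.50 and 0 past both thresholds. Another 7 belonged to CPE, which encodes carboxypeptidase E, the enzyme that trims peptide hormones in the granule, and which was picked out after its values were seen. All 7 CPE probes were lower with RPS, by -0.58 to -0.41 in the colon, and 6 had an unadjusted p under 0.05 but none reached 1.5-fold. Most probes of the list below 0 were thus repeated probes of CHGB and CPE. Without those arrays that stood apart, the CPE values were also read. Without CS replicate 3 and RPS replicate 2 the CPE probes differed by -0.77 to -0.63 and all 7 passed both thresholds, and the list of 90 then had 0 probes higher and 14 lower. Over all 43603 probes the number past both thresholds also went from 1283 to 2385 without these arrays. In the liver the CPE differences were -0.93 to -0.36, with 0 past both thresholds.

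Between the tissues, 49 of the 90 probes were higher and 13 lower in the colon at an adjusted p under 0.05, while 28.9% and 24% of all probes were, and 15 of the 49 were probes of CHGB. The largest fitted differences were those of GUCA2A, the guanylin gene, with 9.64 ± 0.47 at A_72_P413528 and 9.62 ± 0.48 at A_72_P176356, and of CHGB A_72_P572829, with 7.93 ± 0.54. This CHGB probe was well above background on 1 of 8 liver arrays and differed by 3.93 after normexp correction, where the GUCA2A probes differed by 8.69 and 8.41. SCT, the secretin gene, was lower in the colon by -3.94 ± 0.35, DPP4, the peptidase that inactivates glucagon-like peptide 1, by -3.63 ± 0.24, and NPY1R, the Y1 receptor gene, measured on 4 of 8 colonic arrays, by -2.22 ± 0.29. All had a limma adjusted p under 0.05.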

How the data were processed

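Of pigs on the CS and RPS diets, 4 per diet and tissue were measured on 16 arrays. Per the file headers, the authors obtained spot intensity values, background subtracted but not normalized between arrays, with Agilent Feature Extraction 10.7, and they deposited a table of log2 values that had been quantile normalized. Here the intensities of spots other than controls were used, spots marked as outliers were treated as missing, and quantile normalization on the log2 scale was run within a tissue (8 arrays) or, between tissues, over 16 arrays. RPS minus CS and colon minus liver were fitted for all 43603 probes in limma 3.58.1 under R 4.3.3, with the data.table package (version 1.17.8), with Benjamini-Hochberg adjustment across all of them. Dim probes were kept. A probe passed both diet thresholds of the study with a fold change over 1.5 at an unadjusted p under 0.05. Precision is limited by the number of arrays. Figures were made in matplotlib 3.10.9.

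The members and gene lists were chosen with earlier results of these data known. All member probes were described. Of the other peptide genes, up to 5 probes per direction and tissue were named by size among those past both thresholds and measured above background on every array of a diet, and up to 3 per direction between tissues. Alternative settings changed the scaling (75th percentile, or 16 arrays together), the background correction (normexp, offset 50), the source of values (the authors' log2 table), the outlier spots (retained), the probes (well above background only), the test (the methods' t-test, an intensity trend, a joint fit, a block for the replicate number) and the arrays (each left out, and, added after the data were seen, CS replicate 3 and RPS replicate 2 of the colon together). Same-numbered arrays of the tissues deviated together for CS (r = 0.16 to 0.33) and not for RPS (r = -0.08 to 0.07). Bounds for probes at background used the dimmest probe well above background on each array. Arrays of the brighter group that were not well above background were taken at their reading. Probes without the mark could also read above the dimmest marked probe, so the bounds are not strict minima. The fit was tested on simulated data with known changes. No genome coordinates were used, because the array files name no genome build.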

Additional observations from a re-analysis of the deposited data

Results flagged for a closer look

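In 32 groups of 4 arrays in which a probe was well above background throughout, the gap of the outermost array to its neighbor was divided by the range and set against Dixon's critical value for 4 samples, which chance exceeds in about 5% of groups. It was exceeded in 4. For CCK A_72_P232347, colonic RPS replicate 2 read 9.63 where the others read 5.10 to 5.31, a ratio of 0.953. For SST A_72_P077456, colonic CS replicate 3 read 9.04 where the others read 11.64 to 11.99, a ratio of 0.881. For PYY A_72_P116571, liver RPS replicate 4 read 8.23 where the others read 10.26 to 10.61, a ratio of 0.851. For ADCYAP1 A_72_P302719, liver CS replicate 4 read 5.95 where the others read 6.82 to 6.98, a ratio of 0.849.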

How the results depend on the processing

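The background treatment and a few arrays moved the results most. The offset of 50 in the normexp setting by itself shrinks log2 differences of dim probes, and why the arrays differed was not tested. Of 14 member probes, 2 passed both thresholds in the colon and 4 in the liver, against 0 and 1 with normexp correction and 1 in the colon when limited to probes well above background. Over all probes, normexp correction lowered the number past both from 1283 to 172 in the colon and from 1554 to 220 in the liver. Of the other peptide probes 4 and 5 passed, against 0 and 0 with normexp correction, 1 in the colon with probes well above background, and 14 in the colon without CS replicate 3 and RPS replicate 2. Leaving out 1 array gave 2 to 3 member probes for the colon, 4 to 6 for the liver and 6 to 7 between tissues, and 2 to 12 other peptide probes in the colon (12 without RPS replicate 2, 7 without CS replicate 2) and 2 to 6 in the liver. With the replicate number as a block, 3 and 5 member probes passed and 6 between tissues. Deviations of same-numbered arrays of the 2 diets correlated with r from -0.51 to 0.55 for colon and -0.16 to 0.11 for liver. With so few arrays per group, these values cannot settle whether the numbers pair the diets. A slide block was not run, since each slide holds 1 group.

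The PYY and GCG correlation was 0.70 without the 2 farthest arrays, 0.78 without CS replicate 3 and RPS replicate 2, and 0.73 to 0.97 with 1 array left out, and lost its call without CS replicate 3. With CHGA read at A_72_P479234, its pairs with PYY, GCG, SST and SCG3 changed sign without the 2 farthest arrays (-0.13, -0.54, -0.15 and 0.07). The first 3 also did so without CS replicate 3 and RPS replicate 2 (-0.23, -0.54 and -0.15), and SCG3 after scaling to the 75th percentile (0.23). With 1 array left out they spanned -0.34 to 0.79, -0.49 to 0.57, -0.34 to 0.64 and -0.52 to -0.05.

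Differences that were never called also changed sign. In the liver, CHGA A_72_P479234 was -0.01 with the authors' values, 0.00 with outlier spots kept and -0.03 to 0.04 with 1 array left out, and PYY was -0.43 to 1.03 with 1 array left out. Between tissues, CCK A_72_P496361 was 0.08 scaled to the 75th percentile, 0.20 with normexp, 0.89 within CS, -0.99 without CS replicate 3 and RPS replicate 2 and -0.58 to 0.36 with 1 array left out. CCK A_72_P232347 was -0.73 within RPS, -0.76 without CS replicate 3 and RPS replicate 2 and -0.37 to 0.52 with 1 array left out. PYY was -0.20 within RPS, 0.92 without both arrays and -0.14 to 0.80 with 1 array left out, and NPY2R was -0.72 within RPS. SCG3 was -0.48, -0.46 and -0.35 within CS at its 3 probes, with 0.00 for A_72_P051621 after normexp, and CHGA A_72_P479234 was 0.08 within CS.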
